A study of Homo sapiens with 24 samples.

Results

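Cytosolic ribosomal proteins are the protein components of the small and the large ribosomal subunit. Their genes were read from the deposited count tables by name: every row named RPS or RPL followed by a number, with an optional A, X or L, was taken, together with RPSA, RPLP0, RPLP1 and RPLP2. This gave 88 of 60658 genes, of which 35 have small subunit names (RPS) and 53 large subunit names (RPL). By annotation, 84 were protein-coding and 4 were processed pseudogenes (RPS2L1, RPS5L, RPS10L and RPL12L3). A mean of at least 1000 counts per library was reached by 78 of them, 6 lay between 10 and 1000, and 4 lay under 10 (RPL12L3, RPS10L, RPL10L and RPS5L). The 84 genes whose mean was 10 counts or more also reached 10 counts in every library, so no filter on low counts removed any of them from a comparison.

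Polyadenylated RNA had been sequenced 48 h after transfection of human cells labelled SH-SY5Y, a neuroblastoma line, to look for off-target changes when the circular RNA ciRS-7 (CDR1as) is depleted. There were 4 setups, each with 3 knockdown (KD) and 3 non-targeting control (NTC) libraries, which makes 8 groups and 24 libraries. In agoshRNA_KD and agoshRNA_NTC, plasmids expressed an Argonaute-processed short hairpin RNA, targeting or not. In gRNA_KD, gRNA_NTC, pre-gRNA_KD and pre-gRNA_NTC, a plasmid for the RNA-cutting nuclease CasRx fused to GFP was delivered with a plasmid expressing a mature (gRNA) or a precursor (pre-gRNA) guide. In syn-gRNA_KD and syn-gRNA_NTC a synthetic guide RNA was used, going by the title of the series, and its delivery is not described in the labels. The control arm of a setup thus carries the same kind of agent as its KD arm, with a guide or hairpin that is not directed at ciRS-7. The count columns carry letters A, B and C that nothing ties to the replicate numbers of the labels, and a library is given below as its setup, its arm and its letter. Nothing says that replicates were separate cultures, and p-values measure the spread between these libraries only.

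Each ribosome holds close to a single copy of nearly every ribosomal protein, and cells make these proteins in matched amounts. Most of their mRNAs begin with a C followed by a stretch of pyrimidines, the 5′ terminal oligopyrimidine (TOP) motif, through which mTOR signalling controls their translation. Several genes have a paralog that is expressed in particular tissues or that works in ribosome assembly.

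The first transcribed bases show which genes carry the motif, and the windows below set members with a tract at the annotated start beside paralogs without one. Starts are those of RefSeq on GRCh38.p14, each window holds 10 bases before the start and 20 from the start on, and capitals mark a C at the start with the unbroken run of C and T that follows it, where this run has 4 bases or more.
RPS6 (chr9:19380217-19380246, minus strand): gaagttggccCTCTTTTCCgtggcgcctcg
RPS14 (chr5:150449720-150449749, minus strand): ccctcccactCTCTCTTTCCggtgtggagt
RPLP0 (chr12:120201092-120201121, minus strand): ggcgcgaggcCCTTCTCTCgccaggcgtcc
RPL28 (chr19:55385922-55385951, plus strand): cctcgccttcCTCTTTCCgtctcaggtcgc
RPL41 (chr12:56116623-56116652, plus strand): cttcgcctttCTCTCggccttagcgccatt
RPL22 (chr1:6199576-6199605, minus strand): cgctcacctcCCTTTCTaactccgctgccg
RPL22L1 (chr3:170870176-170870205, minus strand): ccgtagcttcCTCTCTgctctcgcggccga
RPS27 (chr1:153990752-153990781, plus strand): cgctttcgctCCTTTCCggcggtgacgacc
RPS27L (chr15:63157458-63157487, minus strand): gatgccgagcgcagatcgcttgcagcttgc
RPL26 (chr17:8383174-8383203, minus strand): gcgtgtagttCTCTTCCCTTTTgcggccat
RPL26L1 (chr5:172958719-172958748, plus strand): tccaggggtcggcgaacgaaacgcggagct
RPL7L1 (chr6:42879606-42879635, plus strand): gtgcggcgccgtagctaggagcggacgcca

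The table of starts held 67 of the 88 members. Of these, 47 (70.1%) had such a tract exactly at 1 of their starts, against 4.98% of 27238 other genes. The tract was 5 to 19 bases long, with a median of 8. Among paralogs, RPL22L1 shares the tract with RPL22, while RPS27L, RPL26L1 (at both of its listed starts, 1 shown) and RPL7L1 have no run at the listed start. RPL10L had none either. The lack was not particular to paralogs. Among abundant members with 1 listed start, 40 had a tract at it and 13 had none, among them RPL7L1 but also RPS4X, RPL4, RPL3 and RPS7. Anywhere in the window, such a run was found in 88.1% of members and 43.3% of other genes. A match at an annotated start describes these letters only. In the other TOP and translation factor genes listed for comparison, such as EEF1A1 and TPT1, 13 of the 15 found had a tract.

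The libraries held 10994974 to 16233777 counts, of which ribosomal protein genes took 1200430 to 2384727. The cell label was checked against markers: the noradrenergic neuroblastoma genes PHOX2A, STMN2 and ELAVL4 were at a mean of 0.09, 0.04 and 0.03 CPM (counts scaled to equal library totals) and no library held more than 5 counts of any of them. GATA2 and CHRNA3, also expressed in such cells, were at 35.6 and 13.0 CPM, and the HOX genes HOXA9 and HOXA10 were at 98.2 and 85.0 CPM. The cells are therefore called by their label only. A circle has no poly(A) tail and should be lost in such libraries. The linear gene CDR1 at the targeted locus had 0 to 26 counts in KD and 2 to 22 counts in NTC libraries, and the depletion itself cannot be read here. The mean transcript GC content over the counts of protein-coding genes ranged from 48.4% to 53.5% between libraries.

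Ribosomal protein mRNAs were among the most abundant in these cells, and 43 of the 100 genes with the highest mean CPM were members. Levels between genes are compared as CPM per kilobase of coding sequence, as the median over 24 libraries. On this scale the 78 abundant members had a median of 2763, with quartiles at 1926 and 3563. The small subunit's 31 abundant members had a median of 2597 and the large subunit's 47 a median of 2906. In the lower class, RPL3L stood at 2.17, RPL39L at 84.1 and RPL26L1 at 108 CPM per coding kilobase. RPL41, whose product is a very short peptide of the large subunit, was highest at 12271 CPM per coding kilobase, ranging from 9320 to 17779. RPS2, which lies at the mRNA entry of the small subunit, followed at 7040 (4291 to 12539). The rank of RPL41 rests on its coding length of 75 bases: per kilobase of transcript its level was 1962, and RPS2 was then the highest at 6282. At the other end of the abundant members stood RPL7L1 at 248, below RPL23A at 874 and RPS26 at 1100. Reads of RPL23A and RPS26 can be lost to near-identical pseudogene copies, and whether this lowered their levels was not tested. Annotated ribosomal protein pseudogenes together held 0.1% to 0.239% of all counts.

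The paralogs lay far below their parent genes. Per coding kilobase RPL7L1, known from precursors of the large subunit, stood at a median of 11.7% of RPL7, and this share moved from 3.16% to 31.5% between libraries. RPL22L1, which can replace RPL22, stood at 8.63% of RPL22, with a range of 6.41% to 10.95%. RPL26L1 was at 4.93% of RPL26, RPL39L, best known from testis, at 3.71% of RPL39, and RPS27L, a p53 target, at 2.92% of RPS27. RPL3L, the paralog of striated muscle, had 19 to 61 counts and stood at 0.079% of RPL3. RPL10L, a testis gene, had 0 to 2 counts in a library. Over the 24 libraries, CPM of RPL22L1 and RPL22 moved together on the log2 scale (Pearson's r = 0.88), whereas RPL7L1 and RPL7 moved in opposite directions (r = -0.57). These are descriptions over libraries that also share depth and base composition.

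**Figure D1:**
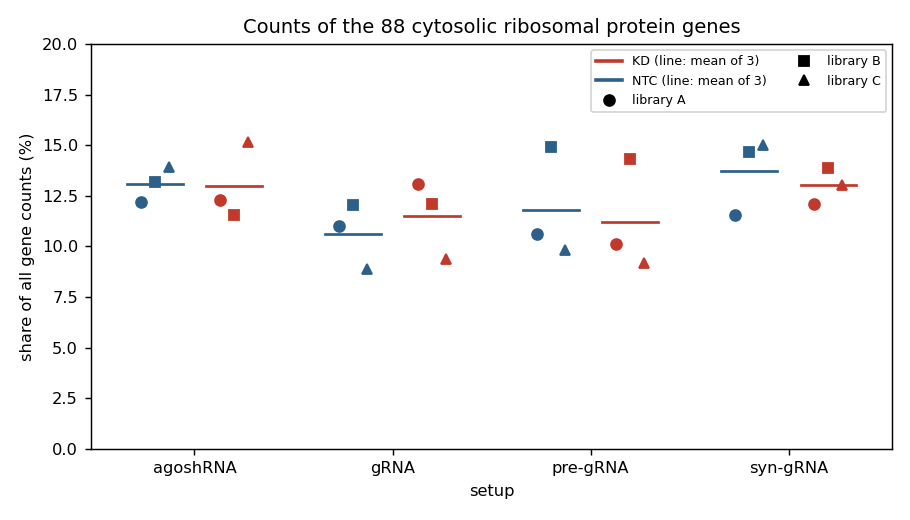
Share of all gene counts taken by the 88 ribosomal protein genes (y axis, percent) in each of 24 libraries, by setup (x axis); blue is NTC, red is KD, symbols are the column letters and lines are means of 3 libraries. In the pre-gRNA setup the B library stands highest in both arms, at 14.9% and 14.3%, and in the gRNA setup the C library stands lowest, at 8.87% and 9.39%.

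The share of counts taken by ribosomal protein genes ranged from 8.87% to 15.1% between libraries. In agoshRNA it was 12.2%, 13.2% and 13.9% in NTC libraries A, B and C and 12.3%, 11.6% and 15.1% in KD. In gRNA it was 10.98%, 12.02% and 8.87% in NTC and 13.1%, 12.1% and 9.39% in KD. In pre-gRNA it was 10.6%, 14.9% and 9.83% in NTC and 10.1%, 14.3% and 9.19% in KD, so that the letters stood in the same order in both arms. In syn-gRNA it was 11.6%, 14.7% and 15.0% in NTC and 12.1%, 13.9% and 13.1% in KD. The KD and NTC libraries overlapped in every setup. Small-subunit counts stood at 0.685 to 0.747 of large-subunit counts, so the balance of the subunits moved much less than their sum.

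No difference between KD and NTC was detected for any ribosomal protein gene in any setup. With the Wald test of DESeq2 on the 6 libraries of a setup, called at an adjusted p under 0.05 over all genes tested, 0 of 84 members were called in agoshRNA, gRNA, pre-gRNA and syn-gRNA, where the share called among all genes was 0.0% of 17806, 18371, 18717 and 18513 genes in turn. No member reached an unadjusted p under 0.05 in any setup, and edgeR called 0 members as well. The median log2 difference of the 84 members, KD minus NTC, was -0.04 in agoshRNA, 0.20 in gRNA, -0.09 in pre-gRNA and -0.09 in syn-gRNA, beside 0.06, 0.02, 0.01 and 0.00 over all genes tested. In gRNA 79 of 84 members had a higher KD mean, in syn-gRNA 79 of 84 a lower one, and in pre-gRNA 69 of 84 a lower one, and no member's difference passed the test. With library totals 63 of 84 were higher in gRNA, with a median of 0.10, and 58 of 84 were lower in pre-gRNA. The median standard error of a member's difference was 0.36, 0.35 and 0.45 in the plasmid setups agoshRNA, gRNA and pre-gRNA and 0.17 in syn-gRNA. When a library was left out, the sign of the median was not stable in pre-gRNA and agoshRNA. In pre-gRNA the median was -0.42 without KD library B but 0.27 without NTC library B. In agoshRNA it was -0.16 without NTC library A but 0.15 without KD library A. In gRNA it stayed positive in these fits, from 0.07 to 0.33, and in syn-gRNA it ran from -0.24 to 0.0016.

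Genes with a known clinical or regulatory role followed the same picture. RPS19, the gene most often mutated in Diamond-Blackfan anaemia, had the smallest p among the members for KD against NTC in syn-gRNA. Its CPM was 1002, 1248 and 1450 in NTC libraries A, B and C and 1010, 1131 and 1022 in KD. The log2 difference by DESeq2 was -0.24 (SE 0.17, adjusted p = 1). The NTC and KD values overlapped through library A. RPL5 and RPL11, which bind MDM2 together with 5S rRNA when assembly is disturbed, had KD minus NTC differences between -0.17 and 0.05 and between -0.13 and 0.02. RPS6, the phosphorylation target of S6 kinase, lay between -0.13 and 0.08, and RPS14, the gene of the 5q- syndrome, between -0.10 and 0.17. RPLP0, the base of the ribosomal stalk, and RPSA, also known as a laminin receptor, lay between -0.17 and 0.35 and between -0.17 and 0.32, with their highest values in gRNA.

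The difference between 2 KD effects was tested as well, over the 6 pairs of setups in a model of all 24 libraries. No member of 85 was called in any pair, and the share called among all 20172 genes was 0.0% in each. The median difference of effects over 84 members was -0.28 for pre-gRNA minus gRNA, where 79 members were lower. It was -0.24 for syn-gRNA minus gRNA, where 78 were lower, and 0.21 for gRNA minus agoshRNA, where 82 were higher. For pre-gRNA minus agoshRNA, syn-gRNA minus agoshRNA and syn-gRNA minus pre-gRNA it lay between -0.07 and 0.01. For pre-gRNA minus gRNA it was 0.06 without pre-gRNA NTC B and -0.60 without pre-gRNA KD B. With library totals it was -0.12, where 24 of 84 members were higher. Without 1 library it ran from -0.40 to -0.16 for syn-gRNA minus gRNA and from 0.07 to 0.38 for gRNA minus agoshRNA. In the remaining pairs it took both signs. All comparisons that involve the same setup share its libraries.

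**Figure D2:**
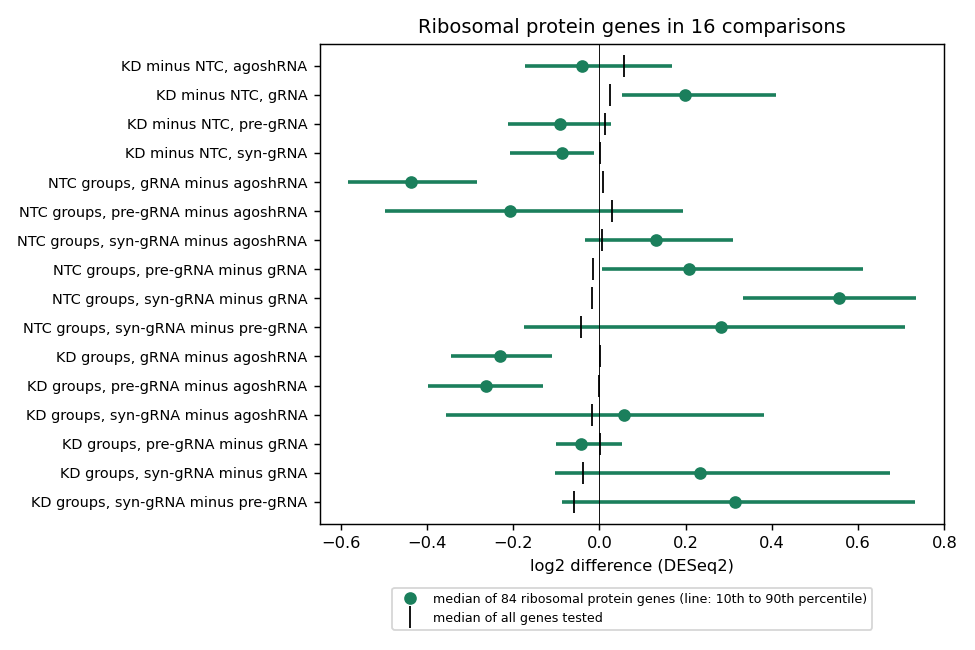
Log2 differences of 84 ribosomal protein genes (x axis) in 16 comparisons (y axis); dots are medians, green lines run from the 10th to the 90th percentile of the genes, and black ticks are medians of all genes tested. The NTC groups of gRNA lie below agoshRNA (median -0.44) and below syn-gRNA (0.56 for syn-gRNA minus gRNA), and the 4 medians for KD minus NTC lie between -0.09 and 0.20.

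Between setups, most ribosomal protein genes had lower means in gRNA than in agoshRNA and syn-gRNA. In the model of all 24 libraries no member passed the test in that direction. The single member called there in any pair, RPL7L1, was lower in syn-gRNA. The pre-gRNA groups were split by library: 35 of 78 abundant members had their highest level of all 24 libraries in pre-gRNA NTC B. In the NTC groups the median log2 difference of 84 members was -0.44 for gRNA minus agoshRNA, with 83 members lower, and -0.21 for pre-gRNA minus agoshRNA, with 53 lower and 31 higher. It was 0.56 for syn-gRNA minus gRNA, with 82 members higher, and 0.28 for syn-gRNA minus pre-gRNA. In the KD groups, which are other libraries, the same 4 differences were -0.23, -0.26, 0.23 and 0.31. The median over all genes tested lay between -0.06 and 0.03 in these 8 comparisons. Of 85 members tested, 0 were called in the NTC pairs gRNA minus agoshRNA, pre-gRNA minus agoshRNA and pre-gRNA minus gRNA, where 0.0496%, 0.0347% and 0.0% of all genes were called, and in the same KD pairs, with 0.0446%, 0.0446% and 0.0%. An unadjusted p under 0.05 was reached by 28 of 85 members for syn-gRNA minus gRNA in NTC, where 11.8% of all genes did so, and by 10 in KD, a share below the 13.4% of all genes. Fitted on the 6 libraries of the pair alone, 10 of 84 members were called for syn-gRNA minus gRNA in NTC, where 5.47% of all genes were called. With library totals in place of DESeq2's factors the median of all genes moved to -0.16 and that of the members to 0.41 for syn-gRNA minus gRNA in NTC, and all 8 medians of the members kept their sign. Leaving out 1 library moved these 8 medians widely without turning a sign. In NTC, syn-gRNA minus pre-gRNA was 0.06 without pre-gRNA NTC C and 0.65 without pre-gRNA NTC B, and pre-gRNA minus agoshRNA was -0.08 without pre-gRNA NTC C and -0.52 without pre-gRNA NTC B. In KD, gRNA minus agoshRNA was -0.07 without agoshRNA KD C, syn-gRNA minus gRNA was 0.06 without gRNA KD C, syn-gRNA minus pre-gRNA was 0.13 without pre-gRNA KD C, and pre-gRNA minus agoshRNA ran from -0.62 without pre-gRNA KD B to -0.12 without agoshRNA KD C. The remaining pairs were less steady. For pre-gRNA minus gRNA the median was 0.21 in NTC, with 77 members higher, and -0.04 in KD, with 24 higher. Without 1 library it ran from -0.09 to 0.35 in NTC and from -0.41 to 0.10 in KD. For syn-gRNA minus agoshRNA the median was 0.13 in NTC and 0.06 in KD. Without 1 library it ran from 0.0055 to 0.29 in NTC and from -0.07 to 0.21 in KD. Setup, delivery and any preparation batch cannot be told apart in these comparisons.

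RPL7L1 (ENSG00000146223.14_2, hg19 chr6:42847356-42857663, plus strand) was the member that was called, and it was lower in syn-gRNA. Its CPM was 281, 193 and 214 in agoshRNA NTC libraries A, B and C, 269, 187 and 192 in gRNA NTC, 208, 91.1 and 202 in pre-gRNA NTC, and 111, 83.3 and 76.4 in syn-gRNA NTC. In KD it was 223, 192 and 144 in agoshRNA, 117, 168 and 196 in gRNA, 251, 97.3 and 205 in pre-gRNA, and 105, 78.3 and 85.8 in syn-gRNA. The syn-gRNA libraries lay below all agoshRNA and gRNA libraries, and both B libraries of pre-gRNA lay within the syn-gRNA range. RPL7 itself went the other way in level, at 2081 ± 325 CPM in syn-gRNA NTC against 1156 ± 302 in gRNA NTC (SD, n = 3), a difference that was not called.

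For RPL7L1 in the NTC groups, the log2 difference was -1.32 (SE 0.27) for syn-gRNA minus agoshRNA, with an adjusted p of 0.00073 by DESeq2, where 1.84% of all genes were called. For syn-gRNA minus gRNA it was -1.12 (SE 0.27, adjusted p = 0.0094, 1.32% of all genes called), and for syn-gRNA minus pre-gRNA -0.81 (adjusted p = 0.067, 3.25% called). In the KD groups it was -1.06 against agoshRNA (adjusted p = 0.0090, 3.14% called) and -0.93 against pre-gRNA (adjusted p = 0.032, 2.52% called), while -0.78 against gRNA did not pass (adjusted p = 0.12, 1.58% called). RPL7L1 was thus 1 of 85 members called in 4 of these 6 pairs, a share of members near or below that of all genes. edgeR gave the same sizes with adjusted p between 0.057 and 0.11 for those 4 and called none.

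Single libraries decided several of these calls. The NTC call against agoshRNA held in each of 12 fits without 1 library, with a log2 difference between -1.46 and -1.22. The NTC call against gRNA was lost without gRNA NTC A (adjusted p = 0.21), gRNA NTC C (0.054), syn-gRNA NTC B (0.13) or syn-gRNA NTC C (0.21). The KD call against agoshRNA was lost without agoshRNA KD A (0.095), syn-gRNA KD B (0.11) or syn-gRNA KD C (0.11), and that against pre-gRNA without pre-gRNA KD A (0.30), pre-gRNA KD C (0.13), syn-gRNA KD B (0.22) or syn-gRNA KD C (0.23). The NTC difference against pre-gRNA passed without pre-gRNA NTC B or without pre-gRNA KD B (0.025 in both). RPL7L1 in KD against NTC was not called in any setup, with log2 differences of -0.26, -0.34, 0.11 and -0.01 in agoshRNA, gRNA, pre-gRNA and syn-gRNA. After scaling by size factors it was the 1 member of 84 whose KD and NTC values did not overlap, in agoshRNA, where 1.08% of all genes did not overlap. No member did so in gRNA (2.35% of all genes), pre-gRNA (1.31%) or syn-gRNA (5.4%).

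**Figure D3:**
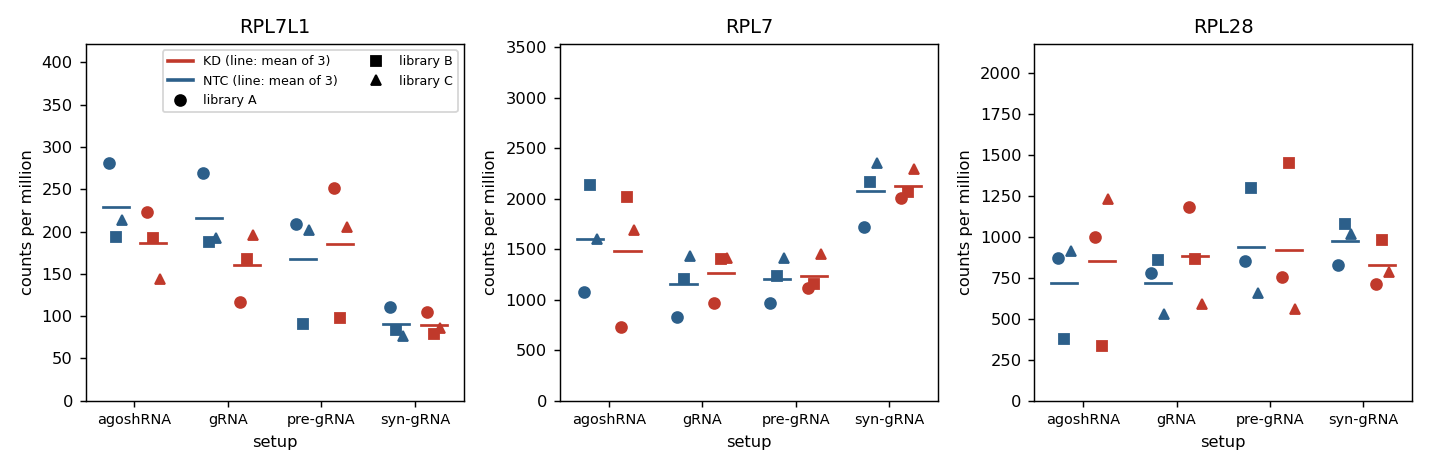
CPM (y axes, from 0) of RPL7L1, RPL7 and RPL28 in 24 libraries by setup (x axes); blue is NTC, red is KD, symbols are column letters and lines are means of 3. RPL7L1 is lowest in syn-gRNA and in the B libraries of pre-gRNA, and RPL28 is lowest in the B libraries of agoshRNA, at 378 and 337.

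Many ribosomal protein genes differed between libraries of the same group, and most of the larger shifts had the same direction in both arms. In pre-gRNA 77 of 78 abundant members had the same sign of B minus A in KD and NTC (92.6% of other abundant coding genes), in syn-gRNA 75 (77.9%), in agoshRNA 56 (94.0%) and in gRNA 36 (69.0%). For C minus A it was 67 (92.1%), 74 (80.2%), 78 (87.5%) and 71 (91.3%) in the same order. The B minus A shift of gRNA thus did not repeat between arms, with medians of -0.12 in KD and 0.28 in NTC. A likelihood ratio test of the letter in DESeq2, with the arm in the model, called 80 of 84 members in pre-gRNA, where 67.5% of all genes were called, and 62 of 84 in syn-gRNA, where 9.86% were called. It called 44 of 84 in agoshRNA and 36 of 84 in gRNA, against 62.7% and 41.9% of all genes, shares near or below the background. All 62 called members of syn-gRNA were higher in B and in C than in A, and 79 of the 80 in pre-gRNA were higher in B than in A, the exception being RPL7L1. The median of 84 members was 0.41 for B minus A and 0.35 for C minus A in syn-gRNA, and 0.80 and -0.10 in pre-gRNA. In agoshRNA the medians were 0.21 and 0.38, and in gRNA 0.01 and -0.43. Medians of all genes lay between -0.07 and 0.05 in these 8 differences. With library totals as size factors the median B minus A became 0.37 in pre-gRNA, 0.28 in syn-gRNA and -0.05 in agoshRNA, where its sign flipped. For all genes it was -0.44, -0.13 and -0.33 in the same order. Under that scaling 37 members were called in syn-gRNA, and the share called among all genes is not reported here.

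Counted without a model, both B libraries of pre-gRNA lay above the other 4 libraries for 75 of 84 members, against 34.3% of all genes, and both A libraries of syn-gRNA lay below the other 4 for 72 of 84, against 16.9%. Both C libraries of gRNA lay below the other 4 for 62 of 84, against 27.7%, and both A libraries of agoshRNA for 47 of 84, against 32.9%. In these letters the members' share was well over that of all genes. Both C libraries of pre-gRNA lay below the others for 41 (30.5%), both B libraries of gRNA above for 30 (8.08%), and both C libraries of agoshRNA above for 29 (8.82%). Both A libraries of pre-gRNA lay below the others for 21 (3.83%), and both B libraries of syn-gRNA above for 15 (9.47%). The remaining directions held fewer members. Their share was under that of all genes, except for the C libraries of syn-gRNA above the others (7.14% of members against 6.33%). The A libraries lay above the others for 1 in agoshRNA (25.3%), 2 in gRNA (24.9%), 0 in pre-gRNA (6.1%) and 1 in syn-gRNA (24.3%). The C libraries lay above for 1 in gRNA (28.5%), 0 in pre-gRNA (32.1%) and 6 in syn-gRNA (6.33%), and below for 0 in agoshRNA (8.51%) and 0 in syn-gRNA (8.55%). The B libraries lay below for 13 in agoshRNA (26.7%), 0 in gRNA (7.04%), 1 in pre-gRNA (36.3%) and 0 in syn-gRNA (9.42%). The B libraries of agoshRNA lay above for 14 (32.2%), and the A libraries of gRNA below for 10 (27.2%), both under the share of all genes. Within the NTC arm of syn-gRNA alone, 77 of 78 abundant members were higher in B than in A (median 0.49), and within KD alone 74 were (median 0.27). In pre-gRNA the medians of B minus A were 0.83 in NTC and 0.81 in KD. The calls rested on few libraries. Leaving out 1 library changed the number of called members widely in agoshRNA, gRNA and syn-gRNA, but little in pre-gRNA. The share called among all genes in these fits is not reported here, so the change is no result about the members. In these fits the median B minus A of 84 members ran from 0.12 to 0.38 in agoshRNA and from -0.09 to 0.30 in gRNA. It ran from 0.79 to 0.81 in pre-gRNA and from 0.26 to 0.56 in syn-gRNA. A fit without 1 library leaves a letter with a single library, assumed to vary like the others. What the letters stand for is not given, and their part in the other comparisons was not tested beyond a fit with the letter as a term, which called 0 members for KD against NTC in each setup.

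**Figure D4:**
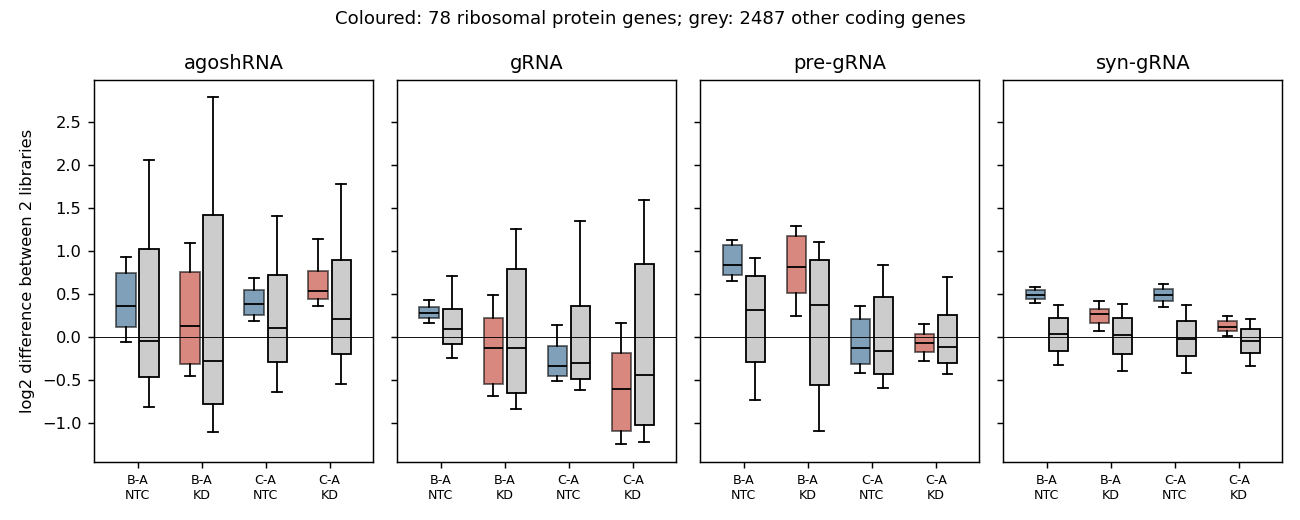
Log2 differences between libraries of the same arm (y axis) for B minus A and C minus A in NTC and KD (x axis) of each setup; coloured boxes are 78 ribosomal protein genes, grey boxes 2487 other abundant coding genes, with whiskers from the 10th to the 90th percentile. In syn-gRNA the coloured boxes are narrow and lie above 0 in both arms (medians 0.49, 0.27, 0.49 and 0.12), with grey medians near 0.

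Members did not all move by the same amount, and for B minus A the size went with the GC content of the transcript, which ranged from 42.1% to 64.1% among the 78 abundant members. In agoshRNA the third with the lowest GC (up to 47.6%) had a median B minus A of 0.75 and the third with the highest GC (from 53.6%) a median of -0.10. In pre-gRNA the order was turned, at 0.66 and 1.14, and in gRNA it was 0.26 and -0.15. Across these 78 genes, Pearson's r between GC and B minus A was -0.67 in agoshRNA, -0.64 in gRNA, 0.61 in pre-gRNA and 0.45 in syn-gRNA. For C minus A it was -0.44, -0.67, -0.70 and 0.05 in the same order, so that in syn-gRNA the shift of C against A had no such relation. Across 2487 other coding genes with at least 1000 counts r for B minus A was -0.79, -0.75, 0.69 and 0.44, so the relation was not particular to ribosomal protein genes. With log2 coding length, r among members in syn-gRNA was -0.25 for B minus A and -0.45 for C minus A. Across the other coding genes it was -0.36 and -0.46. In the remaining setups the members' r with length lay between -0.14 and 0.15 for these differences. Genes are not independent replicates and share libraries and base composition, and no test was made. Whether GC content or coding length accounts for the differences was not tested.

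**Figure D5:**
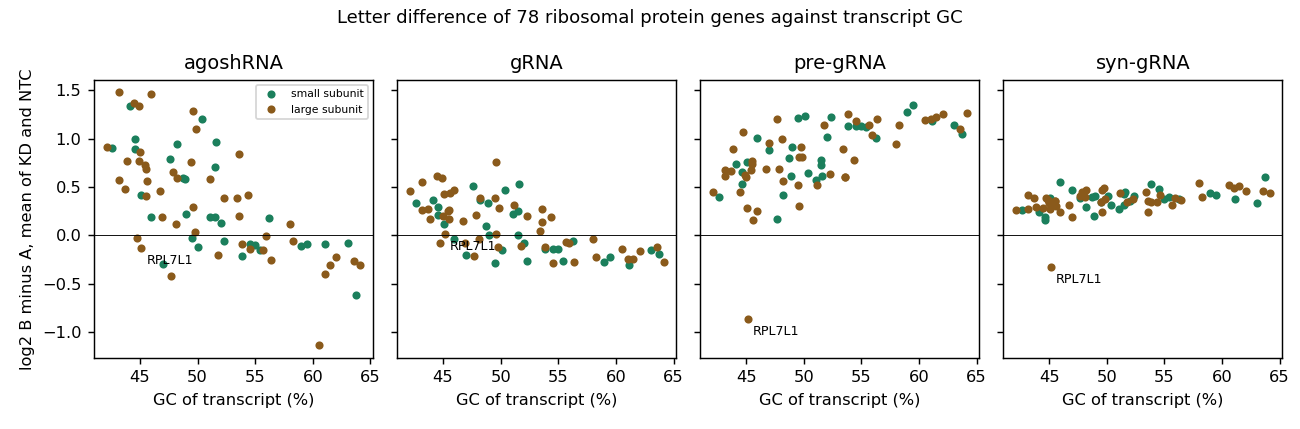
Log2 difference B minus A, mean of KD and NTC (y axis), of 78 ribosomal protein genes against the GC content of their transcript in percent (x axis), by setup; green is the small and brown the large subunit. Points fall with GC in agoshRNA and gRNA (r = -0.67 and -0.64), rise in pre-gRNA and syn-gRNA (0.61 and 0.45), and RPL7L1 lies below the others in pre-gRNA and syn-gRNA.

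Named members show both ends of this pattern. RPL7, with 43.1% GC, had 1075, 2135 and 1601 CPM in agoshRNA NTC libraries A, B and C and 732, 2015 and 1689 in KD. Its log2 difference B minus A was 1.48 (adjusted p = 4.06e-10 for the letter), with A lowest in both arms. RPL28, a large subunit protein with 60.6% GC, had 874, 378 and 912 CPM in NTC and 1000, 337 and 1230 in KD. Its B minus A was -1.12 (adjusted p = 2.94e-10), and B was lowest in both arms. RPL6, RPL17, RPL21 and RPS3A, all of low GC, were raised in B against A by 1.47, 1.37, 1.34 and 1.34 in the same setup.

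In pre-gRNA, RPS2 with 59.0% GC had 6327, 11021 and 4513 CPM in NTC libraries A, B and C and 5351, 10174 and 3878 in KD. Its B minus A was 1.29 (adjusted p = 4.56e-62), and B stood highest and C lowest in both arms. RPS9 (1.35) and RPL13A (1.26) changed by similar amounts, and the pseudogene RPS2L1 (1.57), whose reads cannot be told apart from those of RPS2 with certainty, did too. RPL7L1 fell by 0.86 in B against A (adjusted p = 2.39e-12), the only called member of this setup in that direction. In gRNA, RPS2 fell by 0.98 in C against A (adjusted p = 0.0026), from 6102 to 3772 CPM in NTC and from 9405 to 4285 in KD. RPL14, of the large subunit, rose by 0.75 in B against A (adjusted p = 0.014). In syn-gRNA the largest called changes were those of RPS15 (0.64), RPL29 (0.58) and RPS28 (0.57) in B against A and of RPL34 (0.58) in C against A. RPL34 had 745, 986 and 1193 CPM in NTC and 851, 928 and 1053 in KD, in the same order of letters in both arms.

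Spread over the 6 libraries of a setup separated steady from variable members. The log2 level of an abundant member ranged over a median of 0.82 in agoshRNA, 0.91 in gRNA, 1.02 in pre-gRNA and 0.53 in syn-gRNA, against 1.09, 1.07, 1.18 and 0.37 for 2487 other coding genes. In syn-gRNA, the setup with the tightest libraries, members spread more than other coding genes by this median, and in the other setups less. Among the steadiest were RPS14 (0.38) in agoshRNA, RPS6 (0.42) and RPS7 (0.46) in gRNA, RPL4 (0.27) and RPS4X (0.34) in pre-gRNA, and RPL15 (0.33) and RPL3 (0.34) in syn-gRNA. The most variable were RPL28 (1.91) and RPL7 (1.80) in agoshRNA, RPS2 and RPL8 in gRNA (1.54 and 1.46) and in pre-gRNA (1.91 and 1.82), and RPS29 (0.93) and RPL34 (0.76) in syn-gRNA. As an example, RPS14 kept 1287, 1348 and 1325 CPM in agoshRNA NTC and 1320, 1159 and 1369 in KD.

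Over all 24 libraries, 58 of 78 abundant members had a Pearson's r of at least 0.8 with the mean log2 level of the other members, with a median r of 0.86, against a median of 0.19 for 2487 other coding genes with the member mean. RPL7L1 was the exception, at -0.59, and the next lowest were RPL6 (0.52) and RPL14 (0.55). The genes outside the members whose level followed the member mean most closely were PFDN5 (r = 0.98), a prefoldin subunit, C14orf2 (0.976) and NDUFA4 (0.975), both small mitochondrial proteins. These values describe 24 libraries that fall into 8 groups and share depth and composition, and say nothing of common control.

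Other genes of the ribosome pathway were read from lists chosen for their role. None of 22 other TOP and translation factor genes, 40 ribosome biogenesis factors, 11 RNA polymerase I genes, 7 chaperones of ribosomal proteins or 77 tested mitochondrial ribosomal protein genes was called for KD against NTC in any setup. For the letters in syn-gRNA, where 9.86% of all genes were called, 14 of the 22 TOP genes were called with a median B minus A of 0.29, and all 22 had a higher B than A. In the same test 5 of 40 biogenesis factors, 1 of 11 RNA polymerase I genes, 0 of 7 chaperones and 8 of 77 mitochondrial ribosomal protein genes were called, with medians of 0.04, 0.03, 0.10 and 0.05. In the NTC groups the TOP genes had a median of -0.33 for gRNA minus agoshRNA and 0.35 for syn-gRNA minus gRNA, on the same side as the members, and 0 of 22 were called in any pair of setups. Between setups, the listed genes that passed were MRPS27 (-0.77, adjusted p = 0.025) and MRPL32 (1.02, adjusted p = 0.049) for syn-gRNA minus pre-gRNA in NTC, and MRPL32 (1.08, adjusted p = 0.035) in KD. MRPS27 and MRPL32 encode proteins of the mitochondrial ribosome.

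In the authors' deposited table of each setup, the adjusted p of all 78 abundant members was 1. Their median log2 fold change in the authors' deposited tables was -0.03 in agoshRNA, 0.22 in gRNA, -0.09 in pre-gRNA and -0.07 in syn-gRNA, and 0 of 78 had an unadjusted p under 0.05.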

How the data were processed

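The authors deposited 1 table per setup, each with whole-number counts per gene in all 24 libraries, which were identical in the 4 tables. Reads were non-stranded and paired-end, per the labels' protocols. The submitters' processing notes name Trim Galore, STAR 2.7.3a, featureCounts, DESeq2 and hg19; settings and annotation are not given in the sources used here. The authors' deposited log2 fold changes and p-values were used only where named, and 24 normalized columns per table were not used.

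Genes with at least 10 counts in 3 libraries were tested with DESeq2 1.42.0 in R 4.3.3 (Wald test, or likelihood ratio test for letters; Benjamini-Hochberg, called under 0.05). edgeR 4.0.16 was an alternative. Coding length and transcript GC came from GENCODE 29, which matched 93.2% of genes. The tests of KD against NTC, of the letters and of 1 pair of NTC groups were also run on simulated data with known changes. The test of a difference between 2 KD effects was not. Named genes were paralog pairs, the 3 highest and lowest by level per length, up to 5 called members per direction and comparison, the 2 steadiest and 2 most variable per setup, RPS6, RPL5, RPL11, RPS14, RPS19, RPLP0 and RPSA, and the 3 non-members most like the member mean. RPL23A, RPS26 and, for their correlation, RPL6 and RPL14 were named after their values were seen. Members, lists and tests were chosen with earlier results of these data known. Alternatives were other scalings, filters, models and leaving out each library. Values of some genes that this rule names are not reported here.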

Additional observations from a re-analysis of the deposited data

Results flagged for a closer look

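The share of counts taken by ribosomal protein genes differed in direction between 2 setups when KD and NTC libraries with the same column letter were set side by side. In gRNA it was higher in KD for all 3 letters, by 2.09, 0.0757 and 0.520 percentage points for A, B and C, with a mean of 0.896. In pre-gRNA it was lower in KD for all 3 letters, by -0.521, -0.613 and -0.637 points, with a mean of -0.59. The labels do not link letters to replicates, and this difference between the setups was not tested for the summed share. Member by member, the difference between these 2 effects was tested and called for 0 of 85 genes. Groups of 3 libraries were too small for a check of single outlying libraries.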

How the results depend on the processing

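No paired analysis was possible because the count columns do not carry the replicate numbers of the labels; a fit with the column letter as a term, whose meaning is not given, was run in its place. For KD against NTC and for differences between KD effects, 0 members were called under every alternative run, that fit included, and the 8 shares of counts moved by less than the spread between replicates. RPL7L1 was lower in syn-gRNA under every alternative run, but counts of called members between setups changed. For syn-gRNA minus agoshRNA, edgeR called 0 in NTC in place of 1, and in KD edgeR, library totals and the fit of 6 libraries each called 0 in place of 1. For syn-gRNA minus gRNA in NTC, edgeR called 0 and the fit of 6 libraries 10, in place of 1. For syn-gRNA minus pre-gRNA, at least 10 counts in every library gave 1 and library totals 4 in NTC, in place of 0, while in KD edgeR and the fit of 6 libraries gave 0 and library totals 2, in place of 1. Leaving out 1 library gave 0 to 1 in each of these but NTC syn-gRNA minus agoshRNA, where it gave 1. For the letters, library totals gave 37 in syn-gRNA in place of 62, and leaving out 1 library gave 12 to 70 in agoshRNA, 0 to 78 in gRNA, 73 to 80 in pre-gRNA and 0 to 65 in syn-gRNA. The cause was not tested. By transcript length in place of coding length, RPL41 moved from 12271 to 1962 and RPL39L from 84.1 to 17.2. The levels of RPL26L1 and RPL3L moved as well. With 3 libraries a group and median standard errors of 0.35 to 0.45 in the plasmid setups, differences of modest size were not detectable.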
